A study of Mus musculus with 32 samples.

Results

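Depolarization can change where the RNA of a neuron is found as well as how much of it there is, and the comparison described here is the change in neurite enrichment after KCl in wild-type (WT) hippocampal neurons. For each gene it is a difference of differences on the log2 scale, (neurite minus soma with KCl) minus (neurite minus soma without KCl). A value above 0 means that a gene's neurite to soma ratio rose relative to the other genes. A value below 0 means that it fell. Libraries were made from equal amounts of RNA and scaled to each other, so the absolute share of an RNA in neurites is not measured. The members are 8 RNA-seq libraries of the 16 in the series (32 samples in all, the others being DART-seq libraries), taken by genotype, and the 23200 of 55573 genes in the count table that had a mean count of at least 10 in those 8 libraries. Just inside that limit, Ccl4 averaged 10 counts and had a log2 change of 1.05.

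All neurons came from newborn pups, with the tissue of a litter pooled over animals and both sexes, and were grown for 15 days on porous membrane inserts whose pores let axons and dendrites through. WT neurons were C57BL/6 and, like the Mettl3 flox/flox neurons of the series, received AAV-hSyn-Cre-P2A-dTomato at DIV7 (days in vitro), so every WT control also carried Cre and dTomato, driven by a neuronal promoter. At DIV14 all inserts were silenced for 16 h with 1 µM TTX, which blocks voltage-gated sodium channels, and 50 µM D-AP5, which blocks NMDA receptors. Ctrl inserts were then left untreated, and KCl inserts received 55 mM KCl for 2 h. Neurites were scraped from below the membrane and soma from above it, so neurites that stayed above the membrane may be part of the soma fraction. There were 2 inserts per treatment, from distinct litters, and the study's methods use the same litter for Ctrl and KCl. Soma and neurites of equal treatment and replicate number were taken as 1 insert.

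A neuron that is depolarized lets in calcium, which activates kinases and transcription factors such as CREB, and a first wave of genes is transcribed within minutes without new protein. Their RNA is made in the nucleus, matures there and then leaves the cell body, and some, of which Arc is the textbook case, are carried far into dendrites and translated there. Other mRNAs, such as Camk2a and Map2, are held in dendrites of resting neurons. In a ratio of neurites to soma, a gene can move because its RNA changes in the soma, in the neurites or in both, and the values of both compartments are therefore given beside each change. In bulk RNA, fewer cells of a type and less RNA per cell cannot be told apart.

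Total counts of the 8 libraries ran from 38093506 to 71394235. No count was found for any of the 37 mitochondrially encoded genes. The SD of the log2 ratio between the replicates of a group was lowest in Ctrl soma (0.185) and highest in KCl soma (0.394), over 14867 genes that averaged 100 counts or more. Summed over 10 neuronal markers, levels were 3627 to 5024 CPM (counts scaled to a common library total) in soma and 3747 to 4964 CPM in neurites. Astrocyte markers were present in both fractions, with 1280 to 1736 CPM in soma and 2168 to 3269 CPM in neurites. Markers of microglia, the oligodendrocyte lineage and of fibroblasts and vessels each summed to 118 CPM or less in every library. The replicates are from separate litters, and PCR copies were not removed by molecular identifiers, so counts are not independent molecules.

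A gene was called when its change was at least 1.5-fold with an unadjusted p of 0.05 or less in edgeR's quasi-likelihood test. The cutoffs are those of the study, which applied them to another test. By them 465 genes were higher (2.00% of those tested) and 314 were lower (1.35%), 779 in all (3.36%). Among the 14867 genes that averaged 100 counts or more, 289 were higher (1.94%) and 175 lower (1.18%). In all, 966 of 23200 genes (4.16%) had an unadjusted p of at most 0.05. After Benjamini-Hochberg adjustment (adjusted p of 0.05 or less) edgeR called 0 genes and limma-voom 0, while DESeq2 called 3 higher and 12 lower. Adding a replicate block to the neurite effect gave 11 higher and 11 lower genes at an adjusted p of 0.05 or less in edgeR. That fit pairs Ctrl with KCl by litter if equal replicate numbers are the same litter, which the labels do not say. The reported fit does not use this pairing. Dropping the filter on low counts gave 42 and 21. The smallest adjusted p of the reported fit was 0.203, for Egr2. The single genes below are therefore described by their values in each library, since none passed the correction over all genes in the reported fit.

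The balance of rises and falls depended on how libraries were scaled. Of the calls, 59.7% were higher with TMM scaling, 43.4% with RLE scaling (343 higher, 447 lower) and 36.6% with upper-quartile scaling (308 higher, 534 lower). The number of higher genes also rested on single inserts: it was 210 without KCl replicate 1, 1299 without KCl replicate 2 and 956 without Ctrl replicate 1, where 720 genes were lower. None of the 779 genes changed sign under any of these settings, and the bar plot of calls by setting gives all counts. The call rule nearly fixed this: both KCl insert ratios lay above both Ctrl ratios in all 465 higher genes. In 313 of the 314 lower genes both lay below. The constant sign is thus no separate evidence that the change of a gene repeats.

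**Figure D1:**
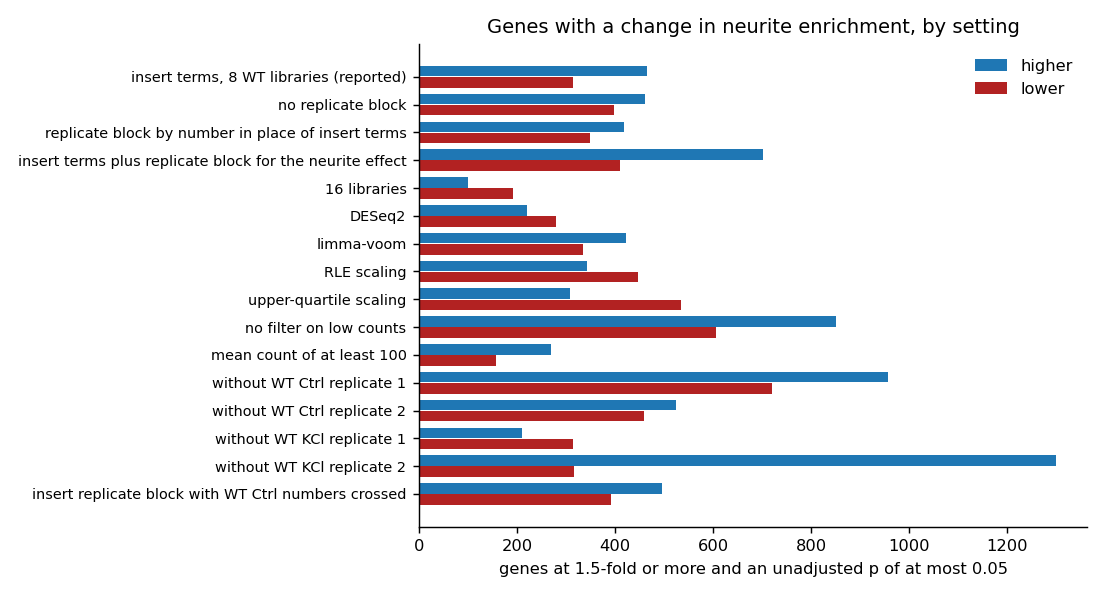
Number of genes called higher (blue) and lower (red) in neurite enrichment after KCl, for the reported fit (465 and 314) and each alternative; the x axis is a count of genes. Higher calls run from 99 in the fit to 16 libraries to 1299 without KCl replicate 2, and lower calls outnumber higher ones with RLE and upper-quartile scaling, in DESeq2, in the fit to 16 libraries and without KCl replicate 1.

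In soma 1220 genes rose (5.26%) and 1395 fell (6.01%) at 1.5-fold and an adjusted p of at most 0.05, and in neurites 1033 rose (4.45%) and 657 fell (2.83%). Without Ctrl replicate 1 these counts were 641, 350, 655 and 227, and without Ctrl replicate 2 they were 678, 524, 508 and 149. Both compartments rose for 822 genes and both fell for 503, and 0 genes rose in one and fell in the other. Without KCl replicate 2 the genes that fell in neurites numbered 263.

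Calls of higher enrichment came with falls in soma more often than with rises in neurites. Of the 465 higher genes, 178 fell in soma with no call in neurites, 59 rose in neurites with no call in soma, 17 rose in both, 6 fell in both, and 205 were called in neither compartment. Their median log2 change was -0.68 in soma and 0.38 in neurites. Of the 314 lower genes, 73 rose in soma with no call in neurites, 44 rose in both, 38 fell in neurites with no call in soma, 1 fell in both and 158 were called in neither. Their medians were 0.77 in soma and -0.38 in neurites. The change in enrichment holds the same libraries as the compartment values, so these counts describe how a call came about and are no separate evidence. Of the calls, 176 higher and 139 lower genes had a mean count under 100, and 8 of the higher genes had no count in either Ctrl neurite library, so their large ratios have no lower reference. By biotype, 316 of the higher and 226 of the lower genes were protein-coding.

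**Figure D2:**
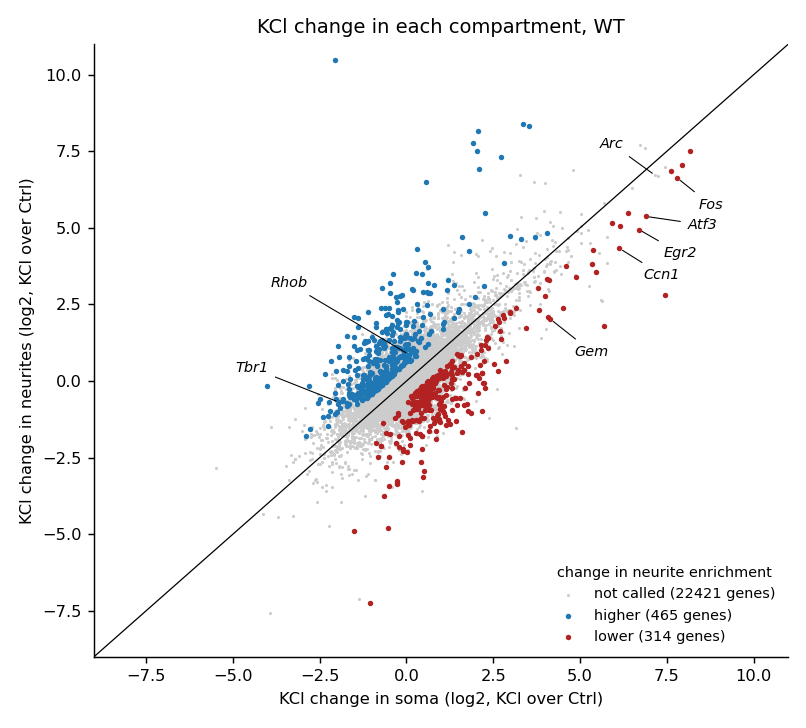
Log2 change after KCl in soma (x axis) and in neurites (y axis) for 23200 genes, each point a gene of the WT libraries; the line marks equal change, blue and red points are genes called higher and lower in neurite enrichment. Fos, Egr2, Atf3 and Ccn1 lie far to the upper right and below the line, and 8 of the 9 blue points with neurite values above 6 are genes with no count in either Ctrl neurite library.

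Most of the early-response transcription regulators rose in soma and most rose in neurites. Of 27 members, 9 were lower and 0 higher, against 1.35% lower and 2.00% higher of all genes. Both KCl inserts lay below both Ctrl inserts in 14 of 27 members, against 13.1% of all genes tested (the reverse held for 19.9% of all genes). The median log2 change of the list was -0.33, against 0.05 over all genes, and ranged from -0.54 without KCl replicate 1 to -0.14 without KCl replicate 2. The number lower ranged from 7 to 12 over all settings. All 9 lower members rose in both compartments, so their RNA increased in neurites, but by a smaller factor than in soma. Across the list, 24 of 27 members rose in soma and 24 in neurites.

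Egr2, a zinc finger transcription factor (GRCm38 chr10:67535475-67542188, + strand), had the smallest p of all genes. Its level was 2.07 and 1.46 CPM in Ctrl soma, 193 and 175 CPM in KCl soma, 4.90 and 3.54 CPM in Ctrl neurites and 129 and 133 CPM in KCl neurites. In Ctrl it had the higher CPM in neurites, and in KCl in soma, in both inserts. The neurite to soma ratio was 1.23 and 1.26 log2 units in Ctrl and -0.58 and -0.39 in KCl, a change of -1.75 ± 0.19 (SE, edgeR unadjusted p = 8.74e-06, adjusted p = 0.203). This corresponded to a 104-fold rise in soma and a 30.7-fold rise in neurites. Leaving out any one insert gave between -1.84 and -1.64.

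Fos, a subunit of the AP-1 transcription factor (chr12:85473890-85477273, + strand), went the same way from a higher level. It was at 13.0 and 12.5 CPM in Ctrl soma, 3021 and 2651 CPM in KCl soma, 18.8 and 16.3 CPM in Ctrl neurites and 1647 and 1828 CPM in KCl neurites. The KCl values of soma and neurites did not overlap, nor did those of the Ctrl, and their order was opposite. The log2 change was -1.17 ± 0.20 (edgeR unadjusted p = 0.000241, adjusted p = 0.939), with a 223-fold rise in soma and a 98.8-fold rise in neurites.

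Atf3, a stress-induced bZIP factor, rose 119-fold in soma, to 308 and 295 CPM, and 41.4-fold in neurites, to 109 and 157 CPM, with a log2 change of -1.55 ± 0.25 (edgeR unadjusted p = 0.000148, adjusted p = 0.939). Npas4, a calcium-dependent bHLH-PAS factor of neurons, reached 816 and 1591 CPM in KCl soma and 756 and 944 CPM in KCl neurites, from 6.54 CPM or less in every Ctrl library. Its log2 change was -0.81 ± 0.24 (edgeR unadjusted p = 0.00861, adjusted p = 0.999), and the call was lost without KCl replicate 2. The KCl soma inserts of Npas4 differed from each other by more than the change itself. Nr4a1, an orphan nuclear receptor, changed by -0.74 ± 0.19 (edgeR unadjusted p = 0.00409, adjusted p = 0.999), a call lost without Ctrl replicate 2. Klf4 (-1.08), Maff (-0.75), Fosb (-0.66) and Egr3 (-0.60) were the other lower members.

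Other strongly induced regulators had no such call. Egr1 rose to a mean of 1303 CPM in KCl soma and 929 CPM in KCl neurites, with a log2 change in enrichment of -0.18 ± 0.20 (SE). Junb, a partner of Fos, had 0.43 ± 0.20, and Ier2 had 0.27 ± 0.18. Egr4 had 1.25 ± 0.65, and its insert pairs went in opposite directions (2.76 for replicate 1 and -0.27 for replicate 2). The members of the list spread from -1.75 (Egr2) to 1.25 (Egr4).

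**Figure D3:**
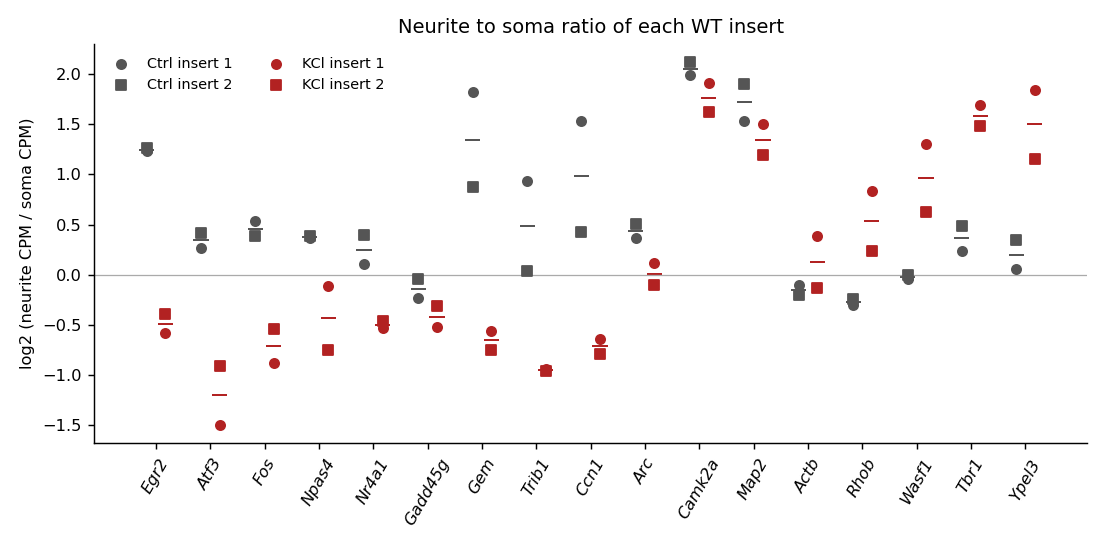
Log2 ratio of neurite to soma CPM (y axis) in the 2 Ctrl inserts (grey) and 2 KCl inserts (red) for 17 genes; short lines are means, circles replicate 1 and squares replicate 2. From Egr2 to Map2 both KCl inserts lie below both Ctrl inserts, also for Gadd45g, Arc, Camk2a and Map2, which were not called. For Rhob, Wasf1, Tbr1 and Ypel3 both lie above, and for Actb they overlap.

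The second list holds signalling and feedback genes that limit or shape the response, such as phosphatases of MAP kinases. Of 26 members, 5 were lower and 3 higher, against 1.35% and 2.00% of all genes, and the list median was -0.26, against 0.05. Gem, a small GTPase that restrains calcium channels, had 0.348 and 0.480 CPM in Ctrl soma, 6.46 and 8.12 CPM in KCl soma, 1.32 and 0.907 CPM in Ctrl neurites and 4.37 and 4.83 CPM in KCl neurites. The order of the compartments turned with KCl in both inserts, and the log2 change was -2.11 ± 0.41 (edgeR unadjusted p = 0.000626, adjusted p = 0.999). It is a rare RNA, with a mean count of 192. Trib1, a pseudokinase, changed by -1.49 ± 0.27 with a 40.8-fold rise in soma and a 14.04-fold rise in neurites. Pim1, a kinase, changed by -1.09 ± 0.27, Dusp1, a MAP kinase phosphatase, by -0.87, and Gadd45b, a stress-response protein, by -0.78 ± 0.19.

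The 3 higher members went the other way. Ptgs2, the inducible cyclooxygenase, rose from a mean of 0.782 to 5.49 CPM in soma and from 0.337 to 5.18 CPM in neurites (log2 change 1.09). Dusp5 changed by 0.78 and Plk3 by 0.64. These calls were the less stable ones: 0 of the 3 were called higher by DESeq2, in the fit to 16 libraries and without KCl replicate 1. Gadd45g, at 1040 and 902 CPM in KCl soma and 724 and 727 CPM in KCl neurites, had -0.28 ± 0.19 and was not called.

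In the list of activity-induced synaptic and secreted genes, 2 of 23 were lower and 0 higher, against 1.35% and 2.00% of all genes, with a median of -0.08. Ccn1, a secreted matrix protein, had 3.63 and 3.92 CPM in Ctrl soma, 264 and 265 CPM in KCl soma, 10.6 and 5.27 CPM in Ctrl neurites and 170 and 154 CPM in KCl neurites. Its log2 change was -1.73 ± 0.31 (edgeR unadjusted p = 0.000395, adjusted p = 0.999). Homer1, a scaffold of the postsynaptic density whose short form is activity-induced, changed by -0.59 ± 0.18, a call that was lost in 6 of the alternatives. Bdnf, a secreted growth factor, rose about equally in both compartments (3.13 and 3.17 log2 units) and had 0.03 ± 0.19.

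Arc, which is transported to dendrites and translated there, was among the most strongly induced RNAs of both compartments. It was at 12.8 and 13.3 CPM in Ctrl soma, 1341 and 2411 CPM in KCl soma, 16.5 and 18.9 CPM in Ctrl neurites and 1452 and 2255 CPM in KCl neurites, a 143-fold rise in soma and a 105-fold rise in neurites. The soma and neurite values with KCl overlapped. The log2 change was -0.43 ± 0.19 (95% interval -0.85 to -0.00498, edgeR unadjusted p = 0.0479, adjusted p = 0.999), under the 1.5-fold limit, and both KCl ratios (0.11 and -0.10) lay below both Ctrl ratios (0.36 and 0.50). An increase in Arc enrichment was thus not detected 2 h after the start of KCl.

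**Figure D4:**
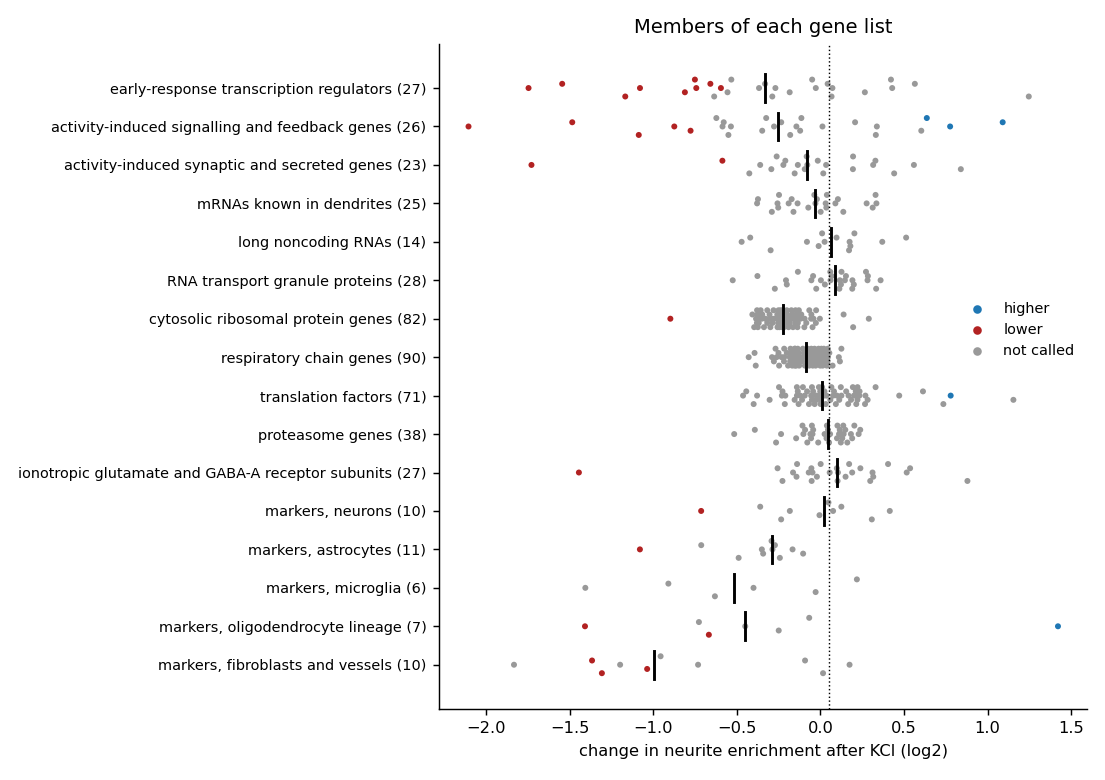
Log2 change in neurite enrichment after KCl (x axis) for the tested members of 16 gene lists (number of members in brackets); blue points are called higher, red lower and grey neither, black bars are list medians and the dotted line is the median of all genes (0.05). Red points gather in the early-response and signalling lists (9 and 5), and the ribosomal list is shifted to the left with 1 called member.

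Of the genes that rose in soma as a class, 117 of 1220 were lower (9.59%) and 17 higher (1.39%), and of those that fell in soma 184 of 1395 were higher (13.2%) and 1 lower. Both values use the same soma libraries, so part of this relation is built in. Taking the soma response from one replicate number and the change in enrichment from the other removes the shared libraries. Genes that rose over 4-fold in soma of replicate 1 had a median change of -0.29 in replicate 2 (153 genes, 106 below 0), and those that rose over 4-fold in soma of replicate 2 had -0.11 in replicate 1 (210 genes, 118 below 0). Genes within 1.5-fold in soma had medians of 0.04 (11701 genes) and 0.03 (12180 genes). Genes that fell over 2-fold had 0.13 (729 genes) and 0.29 (420 genes). The medians thus ordered the same way in both directions of the exchange, while single genes did not repeat well: over 14867 genes the change in enrichment of replicate 1 and of replicate 2, which share no library, correlated at r = 0.06, against r = 0.79 for the soma responses. Genes are not independent replicates, and no p is given.

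Sequences of the genes that rose in soma are shown because the early-response genes share known control elements. The first motif is TGACGT, the core of a CRE, the element bound by CREB and related factors, searched on both strands in RefSeq promoters (GRCm38.p6, 250 bases before to 50 after the start). Of 27025 gene symbols, 8.37% had it in any of their promoters. A comparison between called and other genes is void, since fewer than 80% of them had an entry (72.9% of higher, 76.3% of lower and 78.4% of other protein-coding genes that averaged 100 counts or more). The second is TTATTTATT, an AU-rich element known from unstable mRNAs, searched on the sense strand of the longest 3′UTR (GENCODE M21). Capitals mark a copy of the motif in the 30 bases printed, 5′ to 3′ on the strand of the gene. The Npas4 and Pim1 windows hold further copies in lower case. Only sequences that hold a motif are printed, so they do not show how common it is among lower genes. No promoter is printed for other lower genes, among them Nr4a1 and Gadd45b.

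Fos promoter, chr12:85473812-85473841, + strand: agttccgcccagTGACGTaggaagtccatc
Egr2 promoter, chr10:67537801-67537830, + strand, motif on the opposite strand: atatgggcagcgACGTCAcgggtattgaag
Atf3 promoter, chr1:191183324-191183353, - strand, motif on the opposite strand: attaatagcattACGTCAgcctgggattgg
Npas4 promoter, chr19:4990123-4990152, - strand: gacgtcacgggaTGACGTcggaagtctggg
Ccn1 promoter, chr3:145650027-145650056, - strand, motif on the opposite strand: gccgacagagctACGTCActgcaacacgcg
Fos 3′UTR, chr12:85477103-85477132, + strand: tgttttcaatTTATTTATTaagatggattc
Dusp1 3′UTR, chr17:26506158-26506187, - strand: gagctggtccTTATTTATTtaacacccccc
Pim1 3′UTR, chr17:29495689-29495718, + strand: tttaatgtatTTATTTATTtatttatttgg
Maff 3′UTR, chr15:79358778-79358807, + strand: ttccacactcTTATTTATTgcacgaatcta

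TTATTTATT was present in the 3′UTR of 19 of 138 lower genes (13.8%), 20 of 251 higher genes (7.97%) and 1035 of 11951 others (8.66%), all averaging 100 counts or more. Among genes that rose in soma it was present in 13 of 69 lower genes (18.8%) and in 69 of 643 genes called in neither direction (10.7%). In the early-response list it was present in 2 of 9 lower members and 4 of 18 others, in the signalling list in 2 of 5 and 5 of 21, and in the synaptic and secreted list in 0 of 2 and 3 of 21. The median 3′UTR was 1163.5 bases long in lower, 1271 bases in higher and 1458 bases in other genes. Of protein-coding genes, 35.3% of lower, 39.8% of higher and 44.0% of other genes had at least 1 m6A site in the authors' DART-seq table. These shares are descriptions of the called genes and were not tested.

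Among genes with higher enrichment, Tbr1, a transcription factor of glutamatergic neurons (chr2:61802930-61814114, + strand), had the smallest p. It fell in both compartments, from 37.4 and 27.1 to 8.30 and 8.59 CPM in soma and from 44.1 and 38.1 to 26.8 and 24.0 CPM in neurites. The fall was steeper in soma, and the log2 change in enrichment was 1.22 ± 0.20 (edgeR unadjusted p = 0.000177, adjusted p = 0.939). Guf1, a mitochondrial translation GTPase, likewise fell in both, to 0.219 of its Ctrl level in soma and 0.505 in neurites, with a change of 1.1999 ± 0.21.

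Hnrnpll, a splicing regulator, and Ypel3, a small zinc-binding protein, fell in soma, while their neurite values overlapped between treatments. Ypel3 went from 82.7 and 54.8 to 18.9 and 32.4 CPM in soma, and was at 85.9 and 69.5 CPM in Ctrl neurites and 68.1 and 71.9 CPM in KCl neurites. Its log2 change was 1.30 ± 0.25, and that of Hnrnpll 1.195 ± 0.21 (edgeR unadjusted p = 0.000537 for Ypel3 and unadjusted p = 0.000339 for Hnrnpll, adjusted p = 0.999 for both). Ppm1d, a phosphatase that acts on p53, showed another pattern: it had 13.3 and 24.0 CPM in KCl soma against 16.7 CPM in both Ctrl soma libraries, but rose in neurites from 12.9 and 10.3 to 27.6 and 32.5 CPM. Its change was 1.27 ± 0.26 (edgeR unadjusted p = 0.000788, adjusted p = 0.999). The calls of Tbr1, Hnrnpll, Ypel3 and Ppm1d were lost in the fit to 16 libraries.

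Among the other named genes, Rhob, a small GTPase of endosomes (chr12:8497661-8500009, - strand), had 92.9 and 85.7 CPM in Ctrl soma, 78.9 and 109 CPM in KCl soma, 75.4 and 72.8 CPM in Ctrl neurites and 141 and 129 CPM in KCl neurites. It rose in neurites, by 1.82-fold (edgeR adjusted p = 0.00493), while its soma values overlapped between treatments. The log2 change in enrichment was 0.81 ± 0.22 (edgeR unadjusted p = 0.00548, adjusted p = 0.999), and the call was lost without KCl replicate 1, at 0.52. Wasf1, a subunit of the WAVE complex that drives actin branching, fell in soma from 148 and 143 to 61.0 and 97.9 CPM and was at 143 to 151 CPM in all 4 neurite libraries (log2 change 0.99 ± 0.24). Rac1, the GTPase upstream of that complex, changed by 0.60 ± 0.19 and lost its call in 7 alternatives, including RLE and upper-quartile scaling. The calls of Rhob and Wasf1 were lost in the fit to 16 libraries. Actb itself had 0.28 ± 0.21 (95% interval -0.21 to 0.76), with the KCl ratios of 0.38 and -0.13 overlapping the Ctrl ratios of -0.10 and -0.20.

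The mRNAs known in dendrites of resting neurons gave 0 calls of 25, which is near the share of all genes called in either direction (3.36%), and their median was -0.03. Camk2a, the kinase subunit of the postsynaptic density, was at 1456 and 1677 CPM in Ctrl soma, 1752 and 1766 CPM in KCl soma, 5791 and 7281 CPM in Ctrl neurites and 6564 and 5436 CPM in KCl neurites. It was enriched in neurites in all 4 inserts, by 1.62 to 2.12 log2 units, and its change after KCl was -0.29 ± 0.19 (95% interval -0.72 to 0.14). Map2, a microtubule protein of dendrites, had -0.37 ± 0.21 (95% interval -0.84 to 0.10). The sign of this list's median depended on the insert, from -0.32 without KCl replicate 1 to 0.27 without KCl replicate 2 in the range over all settings. The lists of long noncoding RNAs (0 of 14), RNA transport granule proteins (0 of 28), respiratory chain genes (0 of 90) and proteasome genes (0 of 38) had no call in either direction. Among them Gas5 (-0.47 ± 0.19) and Purb (-0.53 ± 0.20), a protein of transport granules, lay below the 1.5-fold limit. Of 71 translation factors, Eif2b5 was higher (0.78 ± 0.21) and 0 were lower, and of 27 glutamate and GABA-A receptor subunits Grin2c, at 1.32 CPM or less in every library, was lower (-1.45 ± 0.57), a call lost in 5 alternatives (DESeq2, the fit to 16 libraries, and without Ctrl replicate 1, KCl replicate 1 or KCl replicate 2).

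Of the cytosolic ribosomal protein genes, which encode the structural proteins of the ribosome, 1 of 82 was called, near the share of all genes (1.35% lower). Of these members 79 had a change below 0, 68 were below 0 in both replicate numbers, and the median was -0.23, against 0.05 over all genes. The called member was Rpl22l1, a paralog of Rpl22, which was lower (-0.90 ± 0.26), a call lost without Ctrl replicate 2 and in the fit to 16 libraries. Summed over the list, Ctrl soma had 11793 and 10748 CPM, KCl soma 14355 and 11475 CPM, Ctrl neurites 20684 and 23655 CPM and KCl neurites 21865 and 20341 CPM. The log2 ratio of these sums was 0.81 and 1.14 in Ctrl inserts and 0.61 and 0.83 in KCl inserts, which overlap. The list median was negative in every setting, from -0.37 without Ctrl replicate 1 to -0.07 without Ctrl replicate 2. Ribosomal protein genes have many processed pseudogenes, and reads that map to several places were counted, so single members are uncertain.

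Markers of other cell types were compared in the same way. Over all genes 1.35% were lower and 2.00% higher, 10099 of 23200 had a change below 0, and the median was 0.05. Of 11 astrocyte markers, 11 had a change below 0 (median -0.29) and Sox9 was lower (-1.08), and the median was 0.02 without Ctrl replicate 1. Only 3 of the 11 were below 0 in both replicate numbers, and 1 had both KCl ratios below both Ctrl ratios. The summed astrocyte level in the neurite libraries was 3269 and 2168 CPM in Ctrl and 2543 and 2950 CPM in KCl, and in soma it was 1280 and 1309 CPM in Ctrl and 1703 and 1736 CPM in KCl. Of 10 markers of fibroblasts and vessels 3 were lower and 0 higher, with a median of -0.997. Their sum in neurites was 43.5 and 95.4 CPM in Ctrl and 70.7 and 35.5 CPM in KCl, and the number lower was 0 without Ctrl replicate 2, 0 without KCl replicate 2 and 0 in the fit to 16 libraries. Microglial markers (0 of 6 called, median -0.52) and oligodendrocyte lineage markers (2 lower and 1 higher of 7, median -0.45) were at 25.7 CPM or less and 118 CPM or less per library in sum. Several genes with large falls are known from such cells, among them Postn and Lama4 of the extracellular matrix. The part of these cells in the change in enrichment was not tested. Of the 10 neuronal markers, 1 was lower, the neurofilament Nefl (-0.71), and 0 were higher.

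Among RNAs that averaged 100 counts or more, the largest falls and rises included RNAs outside these lists. Mlip, a lamin-interacting protein, rose in soma from 2.53 and 3.47 to 10.9 and 13.6 CPM and was at 5.67 and 9.67 CPM in Ctrl neurites and 8.14 and 9.19 CPM in KCl neurites. Its log2 change was -1.82 ± 0.25 (edgeR unadjusted p = 5.82e-05, adjusted p = 0.675). Ghsr, the ghrelin receptor, changed by -1.33 ± 0.22 through a 2.23-fold rise in soma, with neurite levels of 9.45 and 10.35 CPM in Ctrl and 7.77 and 9.54 CPM in KCl. Mir670hg, a host RNA of microRNAs, changed by -1.56 ± 0.31. Apobec1, an mRNA editing enzyme, differed in the other compartment: it was at 1.05 to 1.57 CPM in all soma libraries and fell in neurites from 5.97 and 4.79 to 2.22 and 1.77 CPM (log2 change -1.51 ± 0.36).

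Of the largest rises, several turned on 1 library. Tgm2, a transglutaminase, had 46.1 CPM in the KCl neurite library of replicate 2 and 0.543 CPM or less in the 7 others, so its log2 change of 5.35 ± 1.41 rests on that library, and the call was lost without it. Islr2, an axon guidance receptor, had 16.9 and 79.1 CPM in KCl soma and was not called without KCl replicate 1, at 0.39, nor in DESeq2, in the fit to 16 libraries, with no replicate block or with the replicate block in place of insert terms. Gm49192, a long noncoding RNA, had 23.45 and 4.71 CPM in Ctrl neurites and 51.0 and 28.5 CPM in KCl neurites, with a change of 3.48 ± 0.70. Nog, a BMP antagonist, fell in soma from 5.62 and 4.56 to 0.895 and 2.27 CPM, with neurite levels of 2.94 and 2.41 CPM in Ctrl and 1.91 and 2.52 CPM in KCl (1.504 ± 0.40). Epha8 (1.38), Amigo2 (1.35), Suv39h2 (1.58), Fam72a (1.35), Zscan25 (1.42) and 2900052L18Rik (1.51) were the others, each with a mean count between 100.6 and 387. The calls of Amigo2, Fam72a, Zscan25 and 2900052L18Rik were lost without KCl replicate 1. Those of Amigo2 and Fam72a were also lost without Ctrl replicate 2, and those of Nog and Amigo2 in the fit to 16 libraries.

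The Mettl3 KO libraries of the series, which share no library with WT, give the same comparison in neurons in which the gene of the m6A methyltransferase was deleted by Cre. Mettl3 itself, in CPM without TMM scaling, was at 3.57 to 12.8 in KO and 7.87 to 19.0 in WT libraries. The ranges thus overlapped. These counts cover the whole gene, whereas the deletion removes a floxed exon, so they do not check the knockout. KO inserts varied more, with a biological coefficient of variation of 0.333 against 0.156 in WT. Of the 175 WT-lower genes that averaged 100 counts or more, 128 were below 0 in KO (median -0.54), as were 109 of the 289 WT-higher genes (median 0.13) and 7566 of 14403 others (median -0.03). The KO insert pairs differed from each other: the median was -0.44 in replicate 1 and -0.49 in replicate 2 for the WT-lower genes, but -0.54 and 0.75 for the WT-higher genes. Of the 16 lower genes in the activity lists, 14 were below 0 in KO, and of the 27 early-response members 24 were (median -0.63, with -0.93 in replicate 1 and -0.34 in replicate 2). The signalling and the synaptic lists had -0.47 and -0.66 in replicate 1 but 0.15 and 0.23 in replicate 2. Values below 0 in KO were not particular to these lists. They were seen in 24 of 25 mRNAs known in dendrites (median -0.48), 9 of 10 neuronal markers, 17 of 38 proteasome genes and 12363 of all 23200 genes. Outside the activity lists, 114 of 159 lower genes were below 0 in KO. Over 14867 genes WT and KO changes correlated at r = 0.23. The KO changes of replicates 1 and 2 correlated at only r = 0.06, so single genes did not repeat well within KO either.

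Fos changed by -0.86 ± 0.44 in KO, Npas4 by -0.84 ± 0.48, Atf3 by -0.87 ± 0.40, Trib1 by -1.40 ± 0.40, Pim1 by -1.45 ± 0.51 and Ghsr by -1.42 ± 0.47. Mlip (-2.47 ± 0.67) and Mir670hg (-2.80 ± 0.64) were lower in both genotypes by more than 1.5 log2 units. Egr2 was smaller in KO, at -0.42 ± 0.45, and its WT minus KO difference was -1.46 (edgeR unadjusted p = 0.0146). The ribosomal protein genes had a median of -1.79 in KO with 80 of 82 below 0, and the respiratory chain genes -1.51 with 78 of 90 below 0. Both values leaned on replicate 2, with medians of -0.71 and -2.77 in replicates 1 and 2 for the ribosomal and -0.38 and -2.63 for the respiratory chain genes. Markers of fibroblasts and vessels had a KO median of 1.23, with 3.46 in replicate 1 and -0.36 in replicate 2. In the fit to 16 libraries 401 genes (1.73%) differed between genotypes by the call rule above, and 0 at an adjusted p in edgeR, the only tool run for that difference. A genotype difference was therefore not shown for any single gene after correction.

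**Figure D5:**
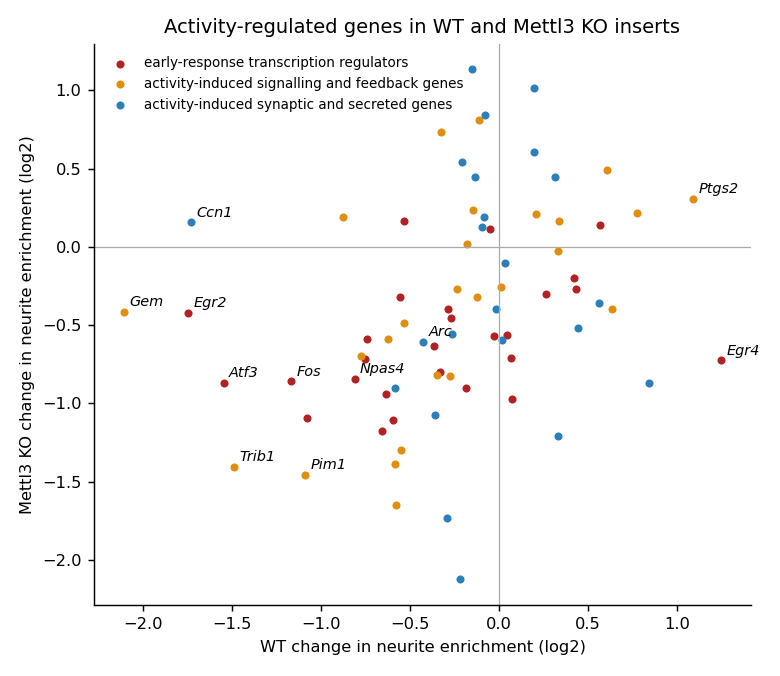
Log2 change in neurite enrichment after KCl in WT (x axis) and Mettl3 KO inserts (y axis) for 76 genes of the 3 activity lists, coloured by list. Of the 16 genes called lower in WT, 14 lie below 0 on both axes, and Ccn1 is one of those above 0 in KO.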

How the data were processed

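Per the labels, libraries were made from 50 ng of total RNA with a kit for low input. The authors aligned paired reads to mm10 with STAR 2.7.7a and counted fragments on exons with featureCounts 2.0.1 and Ensembl release 97. The deposited values are raw counts per gene, without normalization. The header shows no strand option and counts reads that map to several places, so overlapping and antisense genes, paralogs and pseudogenes are uncertain. The DART-seq table was used only for the authors' number of sites per RNA. Deposited tables of the authors' own comparisons were not used, nor was Xtail.

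Counts of the 8 WT libraries were fitted in edgeR 4.0.16 (R 4.3.3, TMM, quasi-likelihood F-test, two-sided) with 1 term per insert and a neurite effect for Ctrl and KCl. Genes averaging fewer than 10 counts were dropped, as were the 37 genes of the mitochondrial genome. Changes in soma and neurites used 1 coefficient per group. Insert ratios used a prior count of 2. The model was tested on simulated counts. Alternatives used DESeq2 1.42.0, limma 3.58.1 (voom), other scalings, filters, replicate blocks, 16 libraries, and each insert left out. Leaving out an insert leaves its treatment with 1 insert, assumed to vary like the other.

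The pairing of soma and neurites comes from the study's methods. The values do not show it: replicate deviations of soma and neurites correlated at -0.14 in Ctrl and 0.03 in KCl. Gene places, biotypes and 3′UTRs are from GENCODE M21 (GRCm38), which matched 23188 of 23200 genes, and promoters from RefSeq. Tables were made in Python 3.11.15 with pandas 2.3.3, and plots with matplotlib 3.10.9.

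Named genes are 8 that the study names for KCl (Actb, Arc, Camk2a, Map2, Rhob, Fos, Npas4, Gadd45g), the 10 genes with the greatest rise and the 10 with the greatest fall (coding or long noncoding, called, 100 counts or more on average, insert ratios not overlapping), the 5 smallest p in each direction among called genes of these biotypes, and for each list up to 4 called members with the smallest p, or 2 members where none was called. Others (such as Egr1, Junb, Ier2, Egr4, Bdnf, Ccl4, the remaining called list members and markers) were chosen after their values were seen. The members and lists were chosen with earlier results of these data known. One of the gene lists is not reported here.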

Additional observations from a re-analysis of the deposited data

Results flagged for a closer look

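For 4 of the named genes both WT inserts moved one way and both Mettl3 KO inserts the other, each KCl insert being compared with the Ctrl insert of its number. The WT minus KO difference in log2 units was 2.26 for 2900052L18Rik (edgeR unadjusted p = 0.022), -1.998 for Ccn1 (edgeR unadjusted p = 0.00509), 1.45 for Epha8 (edgeR unadjusted p = 0.0455) and -2.70 for Lama4 (edgeR unadjusted p = 0.00462). The adjusted p was 0.999 or more for each of the 4, so none of these differences passed the correction over all genes. The opposite signs were seen among 52 named genes, which had been chosen partly for their WT change.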

How the results depend on the processing

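No gene called in the reported fit changed sign under any alternative, which the call rule had nearly fixed. Reported counts were 465 higher, 314 lower and 0 at an adjusted p. Higher and lower genes numbered 701 and 410 with a replicate block on the neurite effect added to the insert terms (22 at an adjusted p), 418 and 349 with a replicate block in place of insert terms, and 461 and 397 with no replicate block. The replicate numbers were not shown by the values to pair the samples, and crossing the Ctrl numbers, an alternative chosen after seeing the data, gave 495 and 392. They numbered 99 and 192 with 16 libraries, 219 and 279 in DESeq2 (15 at an adjusted p), 308 and 534 with upper-quartile scaling, 851 and 606 with no filter (63 at an adjusted p), 269 and 156 for a mean count of 100 or more, 250 and 186 at 2-fold, and 0 and 0 at an adjusted p threshold.

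Leaving out 1 insert gave 210 to 1299 higher genes, 313 to 720 lower genes and 0 to 143 at an adjusted p. The lowest and highest higher counts were those without KCl replicates 1 and 2, of which 132 and 313 were shared with the 465. In soma 641 to 1246 genes rose and 350 to 1662 fell, and in neurites 508 to 1072 rose and 149 to 686 fell; without KCl replicate 2, 263 fell in neurites. Of the other values recomputed, 1137 stayed on their side, 95 counts moved by over 1.5 times, 49 calls were lost and 8 gained. The cause of these shifts was not tested.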
